A study of Homo sapiens with 6 samples.

Results

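The genes described here encode 4 subunits of the transcription factor NF-κB (NFKB1, NFKB2, RELA and RELB) and 6 products known to be made under its control (NFKBIA, NFKBIE, TNFAIP3, BIRC3, SOD2 and IRAK2). Members were chosen by symbol, all 10 were found among the 61806 genes of the deposited table, and all 10 were among the 15704 genes with enough counts to be tested. RNA was sequenced from HFF cells, a cell bank culture of wild type human foreskin fibroblasts. The UVB + sauchinone group (3 libraries) received 40 mJ per cm2 of ultraviolet B, a band of sunlight that damages DNA, and 10 µM sauchinone, a plant lignan. The UVB group (3 libraries) received the same irradiation and, per the labels' protocols, vehicle. Culture went on for 48 h in both groups. Irradiation is shared by all 6 libraries, and unirradiated cells were not analysed here, so the values set irradiated cells with the compound against irradiated cells without it. Per the labels' protocols sauchinone was added after irradiation, with another version in which cells had it beforehand as well, and the labels do not say which version these libraries followed.

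NF-κB proteins act as dimers that inhibitor (IκB) proteins hold in the cytoplasm until an upstream kinase complex marks the inhibitor for destruction. The canonical branch works mainly through RELA paired with p50, the product of NFKB1, and responds to tumour necrosis factor, interleukin-1 and Toll-like receptor ligands, while the noncanonical branch works through RELB paired with p52, the product of NFKB2. Several targets are brakes on the pathway itself, among them IκBα (NFKBIA), IκBε (NFKBIE) and A20 (TNFAIP3), and UVB is known to activate the pathway in skin cells.

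NF-κB binds a short DNA element, the κB decamer, and the genes of several of its own subunits and inhibitors carry it. RefSeq promoter windows (GRCh38.p14, from 250 bases before to 50 after each start) were searched for the decamer on both strands. Windows were matched for 8 of the 10 members (not RELB and NFKBIE), and 5 of these 8 held it in at least 1 window, as did 17.0% of the 11104 tested genes with a window and 11.3% of all 35116 windows. The 200 bases before the start are shown for these 5, because they include both members that rose with sauchinone (NFKB2 and NFKBIA) and members that did not pass the test (NFKB1, TNFAIP3 and BIRC3). Capitals mark the decamer, and each sequence is on the strand of its gene. The stretches lie at chr10:102395505-102395704 (plus strand, the third of 3 NFKB2 starts), chr14:35404750-35404949 (minus strand), chr4:102501159-102501358 (plus strand, the first of 2 starts), chr6:137867059-137867258 (plus strand) and chr11:102317284-102317483 (plus strand).

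NFKB2: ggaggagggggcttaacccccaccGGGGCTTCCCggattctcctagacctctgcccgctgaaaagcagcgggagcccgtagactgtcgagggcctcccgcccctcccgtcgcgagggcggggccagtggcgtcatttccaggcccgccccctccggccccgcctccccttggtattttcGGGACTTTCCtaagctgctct

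NFKBIA: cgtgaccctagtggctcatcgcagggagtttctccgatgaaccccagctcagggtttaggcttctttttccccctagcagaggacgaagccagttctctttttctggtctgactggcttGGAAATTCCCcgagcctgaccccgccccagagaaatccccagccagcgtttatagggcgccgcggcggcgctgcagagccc

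NFKB1: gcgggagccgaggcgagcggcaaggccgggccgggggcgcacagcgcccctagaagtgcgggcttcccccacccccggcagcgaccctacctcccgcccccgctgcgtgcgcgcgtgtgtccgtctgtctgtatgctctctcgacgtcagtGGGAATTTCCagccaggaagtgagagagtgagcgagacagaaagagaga

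TNFAIP3: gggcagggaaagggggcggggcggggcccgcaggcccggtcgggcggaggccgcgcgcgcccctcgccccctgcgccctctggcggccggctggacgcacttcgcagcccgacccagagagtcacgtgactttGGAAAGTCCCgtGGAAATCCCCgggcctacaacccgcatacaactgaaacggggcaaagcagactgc

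BIRC3: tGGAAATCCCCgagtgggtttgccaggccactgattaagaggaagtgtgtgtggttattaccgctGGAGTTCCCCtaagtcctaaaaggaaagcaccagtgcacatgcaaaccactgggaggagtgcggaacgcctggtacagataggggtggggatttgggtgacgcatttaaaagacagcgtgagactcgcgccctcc

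The decamers begin 176 and 21 bases before the start in NFKB2, 81 in NFKBIA, 49 in NFKB1, 67 and 55 in TNFAIP3, and 199 and 135 in BIRC3. Another NFKB2 start, not shown, held 3 matches, of which 2 overlapped each other. The windows of RELA, SOD2 and IRAK2 held none, which says only that these letters are not in them. A match is a description of the sequence, not a binding site.

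Total counts were 21645464 to 23076388 in UVB + sauchinone libraries and 20984851 to 23075536 in UVB libraries. There 3 counts come to 0.130 to 0.143 CPM (counts scaled to a common library size), a level not used as a filter. All 10 fibroblast markers examined were expressed, and their summed level was 13731 to 14148 CPM in UVB + sauchinone and 18959 to 20642 CPM in UVB. By the edgeR test described below 9 of the 10 were called lower, as were 24.9% of all tested genes, and THY1 did not pass. Of markers of other cell types, KRT5, KRT1 and DSG3 (keratinocyte), DCT (melanocyte), CDH5 and KDR (endothelial) and CD3E and AIF1 (immune) had no count in any library. Others were detected, such as KRT10 at 12.9 CPM in UVB + sauchinone and 11.1 CPM in UVB. TEK was at 2.43 CPM in UVB + sauchinone and 6.74 CPM in UVB. Of those with enough counts to be tested, KRT15, MLANA and TEK were called lower, and KRT10, PMEL, CD68, CD14 and LYZ did not pass. The summed level of 8 immune markers, the cells in which these genes are best known, was 4.19 to 4.94 CPM in UVB + sauchinone and 3.24 to 4.08 CPM in UVB. The 8 keratinocyte markers summed to 14.3 to 16.2 CPM in UVB + sauchinone and 13.0 to 14.4 CPM in UVB. For 6 melanocyte markers the sums were 1.47 to 1.66 CPM in UVB + sauchinone and 1.82 to 2.49 CPM in UVB, and for 6 endothelial markers 2.38 to 3.36 CPM in UVB + sauchinone and 6.57 to 8.01 CPM in UVB. Their part in the results was not tested. In bulk libraries fewer cells of a type and less RNA per cell cannot be told apart. Nothing in the labels says that the libraries of a group came from separate cultures, so p-values measure only the spread between these libraries, which may be technical.

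The comparison addresses how sauchinone altered the expression of these genes in irradiated fibroblasts. Of the 10 members, 7 rose and 0 fell by edgeR's quasi-likelihood test (adjusted p under 0.05, by Benjamini and Hochberg's method over all genes tested), where 24.7% of all tested genes were called higher, 24.9% lower and 49.6% in either direction. The count of members that fell was also 0 at an unadjusted p under 0.05, with DESeq2 and with limma-voom. Those that rose were the subunit genes NFKB2, RELB and RELA, the inhibitor genes NFKBIA and NFKBIE, and SOD2 and IRAK2. The libraries of the 2 groups did not overlap for 8 members, all higher in UVB + sauchinone, against 28.6% of all tested genes that were apart in that direction and 57.1% in either. The median log2 fold change of the 10 was 0.51, and that of all tested genes was 0.0071. At least 2-fold higher were NFKBIE and IRAK2, as were 4.54% of all tested genes.

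The share of genes called differed with the length of the gene, so each member also has a background of its own among 5 equal groups of tested genes by span. NFKBIA is in the shortest group, of which 29.4% were called higher and 8.12% lower. NFKB2, RELA, NFKBIE and TNFAIP3 are in group 2 (35.5% higher and 11.8% lower), and RELB and BIRC3 in group 3 (29.6% higher and 17.6% lower). IRAK2 is in group 4 (20.7% higher and 28.6% lower), and NFKB1 and SOD2 are in the longest group (7.99% higher and 58.5% lower). Of the 7 members that rose, NFKB2, RELA, NFKBIE, NFKBIA and RELB thus lie in groups with more higher than lower calls, and IRAK2 and SOD2 in groups with more lower calls. The group of SOD2 rests on its full deposited span (159669069 to 159762529). RefSeq also lists starts inside that span, such as the start next to position 159693242, and a shorter span could place SOD2 in another group.

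**Figure D1:**
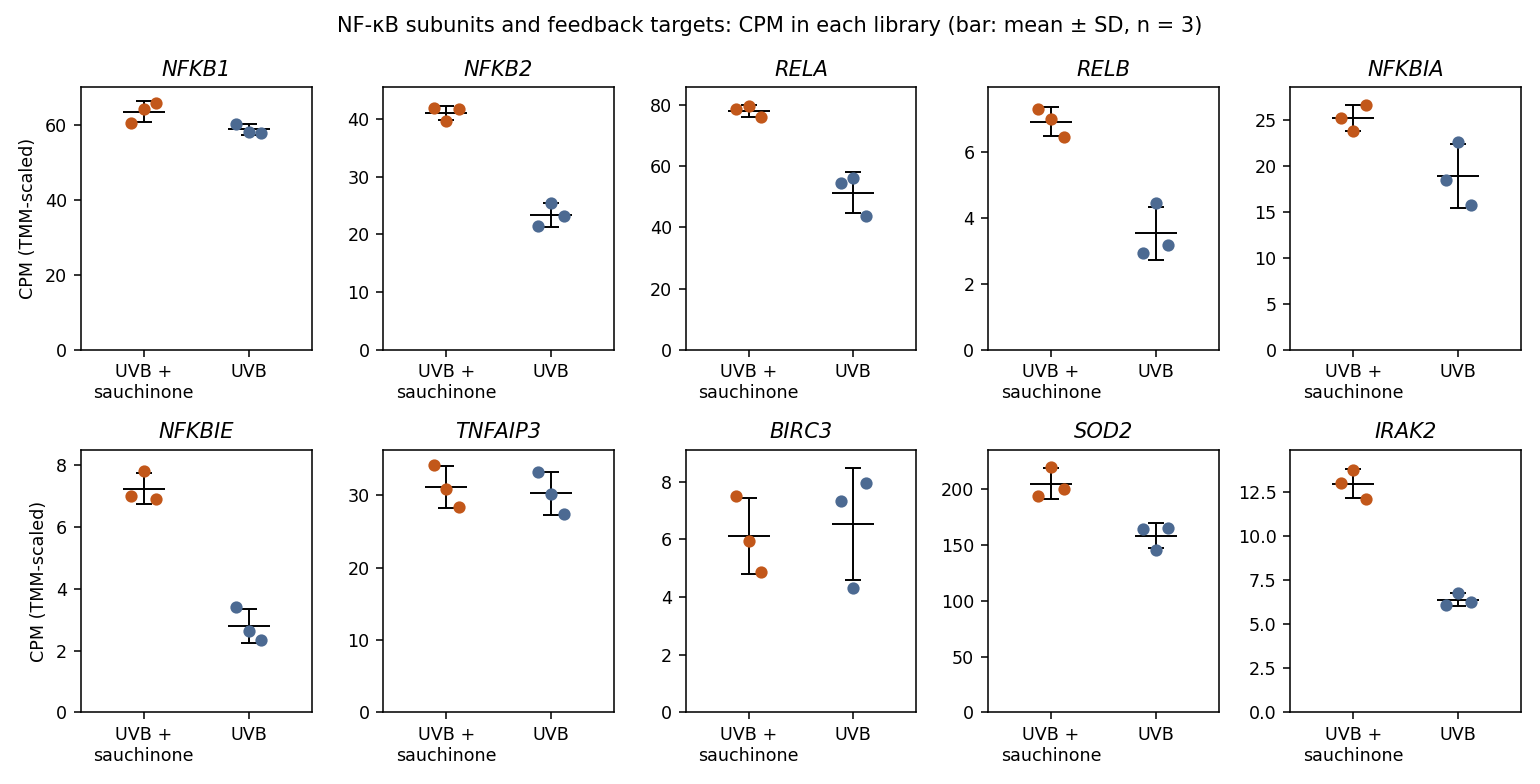
Level in CPM scaled by TMM (y axis, from 0) of each member in the 3 UVB + sauchinone libraries (orange, left) and the 3 UVB libraries (blue, right); points are libraries and bars are mean ± SD. The groups are apart in 8 panels, narrowly so for NFKB1, and overlap for TNFAIP3 and BIRC3.

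The noncanonical subunit genes showed the largest changes among the 4 subunits. NFKB2 encodes p100, which retains RELB in the cytoplasm until it is cut to p52 (ENSG00000077150, chromosome 10, 102394110 to 102402524, plus strand, GRCh38). Its level was 41.9, 39.7 and 41.7 CPM in UVB + sauchinone and 21.4, 25.5 and 23.2 CPM in UVB. All sauchinone libraries lay close together and well above every UVB library. NFKB2 was 1.76-fold higher, a log2 fold change of 0.81 ± 0.096 (SE; edgeR adjusted p = 3.1e-07), the smallest p of the 10 members.

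RELB, the partner of p52, lies on chromosome 19 (ENSG00000104856, 45001461 to 45038192, plus strand). It had 161, 162 and 150 counts in UVB + sauchinone and 61, 96 and 72 counts in UVB, or 6.90 ± 0.43 CPM in UVB + sauchinone and 3.52 ± 0.81 CPM in UVB (SD, n = 3 each). The groups were apart, and the coefficient of variation was 6.29% in UVB + sauchinone and 23.04% in UVB, where replicate 2 was the highest. RELB rose 1.96-fold (0.97 ± 0.18; edgeR adjusted p = 0.00013).

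RELA carries the activation domain of the canonical dimer (ENSG00000173039, chromosome 11, 65653599 to 65663090, minus strand). Its level was 78.6, 79.7 and 76.0 CPM in UVB + sauchinone and 54.5, 56.0 and 43.7 CPM in UVB. Every sauchinone library was above every UVB library, and UVB replicate 3 was the lowest. RELA rose 1.52-fold (0.60 ± 0.093; edgeR adjusted p = 1.2e-05). The antisense transcript RELA-DT, which shares 103 bases with it, held 20 to 22 counts in UVB + sauchinone and 10 to 18 counts in UVB, where RELA held 1739 to 1844 counts in UVB + sauchinone and 990 to 1210 counts in UVB.

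NFKB1 encodes p105, the precursor of p50 (ENSG00000109320, chromosome 4, 102501330 to 102617302, plus strand). Its level was 60.6, 64.2 and 65.9 CPM in UVB + sauchinone and 60.4, 58.1 and 57.9 CPM in UVB. The lowest sauchinone library and the highest UVB library were almost equal. The log2 fold change was 0.11 ± 0.082 and did not pass (edgeR adjusted p = 0.27). NFKB1 spans 116 kb, and the median log2 fold change of its span group was -0.44. After removal of a smooth trend of each library's counts with span, NFKB1 passed (0.39, edgeR adjusted p = 0.00037), as it did with exonic size (0.41, adjusted p = 0.00023). A trend with GC content gave 0.066, and across the alternatives the adjusted p lay between 0.00023 and 0.96.

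Ratios between 2 members within a library do not depend on how libraries are scaled. The count of NFKB2 over that of NFKB1 had a log2 ratio of -0.63 ± 0.085 in UVB + sauchinone and -1.33 ± 0.15 in UVB (SD, n = 3 each), a 1.63-fold higher ratio with sauchinone. NFKB2 spans 8.4 kb and NFKB1 116 kb, and trends with gene length or GC content were not removed from the ratios. The log2 fold changes of NFKB2 and NFKB1 were 0.81 and 0.11 in the main fit. With the span trend removed they were 0.61 and 0.39. With the exonic size trend removed they were 0.78 and 0.41, and with the GC trend removed 0.55 and 0.066. RELB over RELA had a log2 ratio of -3.50 ± 0.066 in UVB + sauchinone and -3.88 ± 0.29 in UVB. In both ratios every sauchinone library was above every UVB library. The RELB to RELA difference of 0.38 became 0.21 without UVB replicate 1. The log2 fold changes of RELB and RELA, 0.97 and 0.60, became 0.93 and 0.41 with the span trend removed. With the exonic size trend removed they were 0.86 and 0.57, and with the GC trend removed 0.67 and 0.43. NFKBIA over RELA had a log2 ratio of -1.63 ± 0.12 in UVB + sauchinone and -1.44 ± 0.13 in UVB, and the libraries overlapped. That difference of -0.18 became -0.11 without UVB replicate 2. Exact two-sided permutation tests gave p = 0.1, 0.1 and 0.2 for the 3 ratios (0.15, 0.15 and 0.2 adjusted over the 3), and 0.1 is the smallest p that 3 against 3 libraries allow, so that none could pass.

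**Figure D2:**
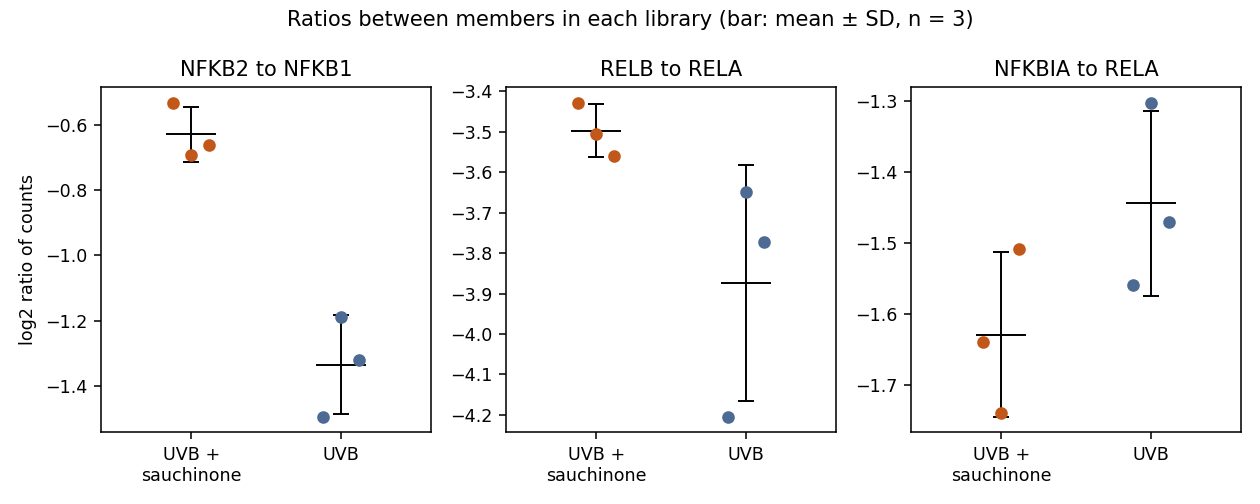
Log2 ratio of counts (y axis, not from 0) of NFKB2 to NFKB1, RELB to RELA and NFKBIA to RELA in the UVB + sauchinone libraries (orange, left) and the UVB libraries (blue, right); points are libraries and bars are mean ± SD, n = 3. The first 2 ratios are higher in every sauchinone library, and the libraries of the third overlap.

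Both inhibitor genes rose. NFKBIE encodes IκBε, known as a late-acting inhibitor (ENSG00000146232, chromosome 6, 44258166 to 44265788, minus strand). It had 155, 181 and 161 counts in UVB + sauchinone and 71, 57 and 53 counts in UVB, or 7.24 ± 0.50 CPM in UVB + sauchinone and 2.80 ± 0.56 CPM in UVB. The lowest sauchinone count has an exact 95% Poisson interval of 132 to 181 and the highest UVB count one of 55.5 to 89.6, which do not meet (both cover counting error only). NFKBIE rose 2.59-fold (1.37 ± 0.18; edgeR adjusted p = 1.9e-06), and 2.02% of tested genes had a larger log2 fold change. Its log2 fold change lay between 1.13 and 1.54 over all alternatives.

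NFKBIA encodes IκBα, the fast feedback inhibitor (ENSG00000100906, chromosome 14, 35401079 to 35404749, minus strand). Its level was 25.2, 23.8 and 26.7 CPM in UVB + sauchinone and 18.5, 22.7 and 15.8 CPM in UVB. The groups were apart by a narrow gap, with UVB replicate 2 close below the sauchinone libraries. NFKBIA rose 1.33-fold (0.41 ± 0.12; edgeR adjusted p = 0.0063). The call was lost with the span trend removed (0.19, adjusted p = 0.16) and against a minimum 1.2-fold change (adjusted p = 0.099), and across the alternatives the adjusted p lay between 0.00018 and 0.16.

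The genes of the ubiquitin editor A20 and the ubiquitin ligase cIAP2 did not pass. TNFAIP3 encodes A20, which trims and builds ubiquitin chains on signalling proteins (ENSG00000118503, chromosome 6, 137867214 to 137883314, plus strand). Its level was 34.2, 30.8 and 28.4 CPM in UVB + sauchinone and 33.2, 30.1 and 27.4 CPM in UVB. The 2 groups covered nearly the same range, and the log2 fold change was 0.042 ± 0.10 (edgeR adjusted p = 0.76). Its sign turned with the span trend removed (-0.11), without UVB + sauchinone replicate 1 (-0.027) and without UVB replicate 3 (-0.029). WAKMAR2, on the opposite strand, shares 1020 bases with it and held 13 to 24 counts in UVB + sauchinone and 27 to 33 counts in UVB.

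BIRC3 encodes cIAP2, which acts at tumour necrosis factor receptors (ENSG00000023445, chromosome 11, 102317450 to 102339403, plus strand). It had 166, 138 and 114 counts in UVB + sauchinone and 152, 93 and 180 counts in UVB. The groups overlapped, and BIRC3 varied most among the members, with a coefficient of variation of 21.5% in UVB + sauchinone and 29.8% in UVB. Exact 95% Poisson intervals of its lowest and highest UVB counts were 75.1 to 114 and 155 to 208, so these libraries differ by more than counting error. Its log2 fold change was -0.095 ± 0.20 (edgeR adjusted p = 0.73), with the sign turned when the GC trend was removed (0.19), without UVB + sauchinone replicate 3 (0.046) and without UVB replicate 3 (0.071). ENSG00000288528, on the opposite strand, shares 11137 bases of its span and held 2 to 5 counts in UVB + sauchinone and 7 to 15 counts in UVB.

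IRAK2 encodes a kinase of the complex that carries interleukin-1 and Toll-like receptor signals from MYD88 to TRAF6 (ENSG00000134070, chromosome 3, 10164919 to 10243745, plus strand). Its level was 13.1, 13.8 and 12.1 CPM in UVB + sauchinone and 6.11, 6.81 and 6.27 CPM in UVB. The groups were far apart relative to their spread. IRAK2 rose 2.03-fold (1.02 ± 0.13; edgeR adjusted p = 1.5e-06), and it spans 78.8 kb.

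SOD2 encodes the mitochondrial manganese superoxide dismutase, a long-known NF-κB target (ENSG00000112096, chromosome 6, 159669069 to 159762529, minus strand). Its level was 194, 220.3 and 201 CPM in UVB + sauchinone and 165, 145 and 165 CPM in UVB. The groups did not overlap, and SOD2 rose 1.30-fold (0.37 ± 0.078; edgeR adjusted p = 0.00037). The call was lost against a minimum 1.2-fold change (adjusted p = 0.076), and the log2 fold change was 0.56 with the span trend removed and 0.71 with the exonic size trend removed. The values with a trend removed rest on the full deposited span and exonic size. WTAP lies wholly within the deposited span of SOD2 on the opposite strand and held 2509 to 2793 counts in UVB + sauchinone and 1815 to 2072 counts in UVB (0.36 ± 0.077; edgeR adjusted p = 0.00048). ACAT2, on the opposite strand, shares 485 bases with SOD2 and held 633 to 693 counts in UVB + sauchinone and 839 to 1042 counts in UVB (-0.56 ± 0.10; edgeR adjusted p = 6.5e-05). Whether the counting used strand is not given in the sources used here, so without it reads of SOD2, TNFAIP3, RELA and BIRC3 cannot be told apart from those of these partners where exons meet.

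**Figure D3:**
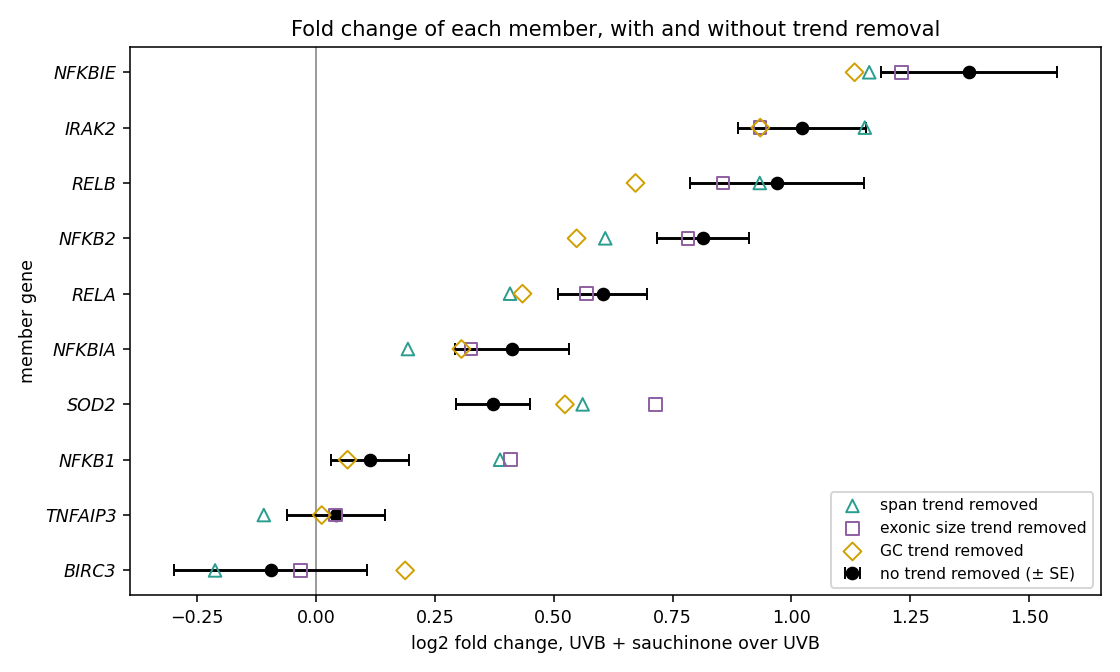
Log2 fold change of UVB + sauchinone over UVB (x axis) for each member (y axis); black points with bars are values ± SE, and open symbols are values with a trend with span (triangles), exonic size (squares) or GC content (diamonds) removed. NFKBIE, IRAK2, RELB, NFKB2 and RELA lie above 0.4 in all 4 fits, and the values of TNFAIP3 and BIRC3 fall on both sides of 0.

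Levels of different genes were compared per length, on the deposited FPKM scale (fragments scaled by exonic size and library size). In UVB + sauchinone RELA stood highest at 14.5 ± 0.29 FPKM, followed by SOD2 at 11.5 ± 0.65, NFKBIA at 7.55 ± 0.48 and NFKB2 at 7.46 ± 0.29 FPKM (mean ± SD, n = 3). TNFAIP3 at 4.94 ± 0.48, NFKB1 at 4.11 ± 0.17, IRAK2 at 3.84 ± 0.22, NFKBIE at 2.84 ± 0.17, RELB at 2.33 ± 0.15 and BIRC3 at 0.83 ± 0.18 FPKM came below. Neighbours whose libraries overlapped were NFKBIA with NFKB2 and NFKB1 with IRAK2. In UVB the order of FPKM began with RELA at 9.26 ± 1.22, SOD2 at 8.58 ± 0.66, NFKBIA at 5.50 ± 0.99, TNFAIP3 at 4.65 ± 0.47, NFKB2 at 4.11 ± 0.33 and NFKB1 at 3.68 ± 0.11. It ended with IRAK2 at 1.83 ± 0.096, RELB at 1.15 ± 0.26, NFKBIE at 1.07 ± 0.22 and BIRC3 at 0.85 ± 0.26 FPKM. All neighbours in that order overlapped except SOD2 with NFKBIA, NFKB1 with IRAK2 and IRAK2 with RELB. The order depends on the length used, since the deposited exonic sizes join all exons of a gene (18144 bases for SOD2 and 15679 for NFKB1). Per length of the longest coding transcript in GENCODE release 29, RELA was again first in both groups and SOD2 had rank 4 in both. NFKB1 had rank 3 in UVB + sauchinone and rank 2 in UVB. The longest SOD2 transcript has 14266 bases, so its rank could differ if a shorter transcript were used.

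The genes most like NFKB2 and IRAK2, the members with the smallest p, were sought by Pearson correlation of log2 CPM over the 6 libraries among genes whose mean was 10 CPM or more. For NFKB2 they were SLC35E4, MOCS3 and PRUNE1 (r = 0.996 each), with log2 fold changes of 1.55, 0.53 and 0.76. For IRAK2 they were KRI1, TXNL4B and ANKLE2 (r = 0.9997, 0.9996 and 0.9993), with log2 fold changes of 1.00, 1.54 and 0.65. Such likeness includes the step between the groups, and 929 of 9052 genes exceeded r = 0.95 with NFKB2 and 1258 of 9053 with IRAK2.

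Other genes of the pathway were followed in 6 lists, beside the all-gene shares of 24.7% higher and 24.9% lower and the all-gene median of 0.0071. Log2 fold changes below are given ± SE with adjusted p from edgeR. Of 14 receptor genes 11 were tested: 4 rose, 1 fell and 6 did not pass, with a median log2 fold change of -0.054. The interleukin-17 receptor gene IL17RA was at 78.5 ± 0.880 CPM in UVB + sauchinone and 52.6 ± 4.17 CPM in UVB (0.58 ± 0.085, adjusted p = 6.4e-06). TNFRSF12A, the receptor of the cytokine TWEAK, was at 71.3 ± 3.56 CPM in UVB + sauchinone and 46.9 ± 8.58 CPM in UVB (0.60 ± 0.11, adjusted p = 6e-05). LTBR, the lymphotoxin receptor that feeds the noncanonical branch, was at 108 ± 2.78 CPM in UVB + sauchinone and 81.6 ± 8.25 CPM in UVB (0.40 ± 0.084, adjusted p = 0.00038). These receptor genes rose, whereas TLR3, the sensor of double-stranded RNA, fell to 1.25 ± 0.109 CPM in UVB + sauchinone, against 3.81 ± 0.738 CPM in UVB (-1.60 ± 0.25, adjusted p = 1.2e-05).

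Of 9 ligand genes 4 had enough counts to be tested: 0 rose, 2 fell and 2 did not pass, with a median log2 fold change of -0.61. The count of ligand genes that rose was also 0 at an unadjusted p under 0.05, with DESeq2 and with limma-voom. IL33, a nuclear alarmin, fell to 19.9 ± 1.66 CPM in UVB + sauchinone, against 28.7 ± 9.42 CPM in UVB (-0.53 ± 0.15, adjusted p = 0.0057), with a wide spread in UVB. TNFSF13B, the gene of the B-cell factor BAFF, fell to 1.42 ± 0.192 CPM in UVB + sauchinone, against 2.62 ± 0.267 CPM in UVB (-0.88 ± 0.26, adjusted p = 0.0062). TNFSF12, which encodes TWEAK, had a log2 fold change of -0.36 ± 0.17, adjusted p = 0.076, and IL1B, the classical interleukin-1 gene, one of -0.70 ± 0.38, adjusted p = 0.13. The genes of tumour necrosis factor (TNF) and interleukin-1α (IL1A) had too few counts to be tested.

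All 22 genes of adaptors and kinases were tested: 6 rose, 4 fell and 12 did not pass, with a median log2 fold change of -0.023. RIPK1, a kinase recruited to the tumour necrosis factor receptor, was at 103 ± 8.76 CPM in UVB + sauchinone and 66.8 ± 2.46 CPM in UVB (0.63 ± 0.084, adjusted p = 1.7e-06). MYD88, the adaptor that IRAK2 joins, was at 73.04 ± 1.02 CPM in UVB + sauchinone and 47.2 ± 2.99 CPM in UVB (0.63 ± 0.084, adjusted p = 1.8e-06). Both rose, and 4 other genes of the list fell. TRAF5, a receptor adaptor, fell to 19.9 ± 1.48 CPM in UVB + sauchinone, against 33.9 ± 4.34 CPM in UVB (-0.77 ± 0.11, adjusted p = 3.9e-06). IRAK3, known as a brake on the MYD88 complex, fell to 16.9 ± 1.15 CPM in UVB + sauchinone, against 25.9 ± 2.89 CPM in UVB (-0.62 ± 0.11, adjusted p = 6.6e-05). The remaining lower genes were named after their values were seen. They were IRAK4, a kinase of the MYD88 complex (-0.48 ± 0.088, adjusted p = 9.6e-05), and the kinase gene MAP3K7 (-0.39 ± 0.089, adjusted p = 0.00097).

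All 8 genes of the list of other subunits and inhibitors were tested: 3 rose, 0 fell and 5 did not pass, with a median log2 fold change of 0.12. The list also holds PDCD11 and NKAP, which encode neither a subunit nor an IκB protein. The count that fell was also 0 at an unadjusted p under 0.05, with DESeq2 and with limma-voom. NFKBIZ, a nuclear IκB protein, was at 51.6 ± 4.54 CPM in UVB + sauchinone and 33.7 ± 4.64 CPM in UVB (0.61 ± 0.10, adjusted p = 3.6e-05). NFKBIB, which encodes IκBβ, was at 15.6 ± 0.684 CPM in UVB + sauchinone and 10.9 ± 1.90 CPM in UVB (0.52 ± 0.13, adjusted p = 0.0021). PDCD11, an NF-κB-binding protein better known for its part in ribosome assembly, was at 141 ± 3.26 CPM in UVB + sauchinone and 97.2 ± 8.33 CPM in UVB (0.54 ± 0.080, adjusted p = 7.3e-06). These 3 rose, so that with NFKBIA and NFKBIE the genes of IκBα, IκBβ and IκBε were each called higher. NKAP, an NF-κB-activating protein, had a log2 fold change of 0.18 ± 0.10, adjusted p = 0.17. REL, the fifth subunit gene, named after its values were seen, was at 6.15 ± 1.45 CPM in UVB + sauchinone and 6.04 ± 1.35 CPM in UVB and did not pass (0.03 ± 0.19, adjusted p = 0.92).

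All 14 genes of ubiquitin editing and other brakes were tested: 6 rose, 2 fell and 6 did not pass, with a median log2 fold change of 0.058. Not all are brakes, since SHARPIN, RBCK1 and RNF31, which did not pass, encode a ubiquitin ligase complex that promotes NF-κB activation. OTUD7B, a deubiquitinase, was at 92.5 ± 9.34 CPM in UVB + sauchinone and 58.1 ± 1.78 CPM in UVB (0.67 ± 0.087, adjusted p = 1.1e-06). ZC3H12A, an RNase that degrades inflammatory mRNAs, was at 5.49 ± 0.760 CPM in UVB + sauchinone and 2.25 ± 0.0609 CPM in UVB (1.29 ± 0.20, adjusted p = 1.1e-05). Both rose. TNIP2, an A20-binding protein, was at 36.3 ± 1.85 CPM in UVB + sauchinone and 24.1 ± 3.10 CPM in UVB (0.59 ± 0.10, adjusted p = 5.8e-05). RNF11, a component of the A20 complex, was at 363 ± 17.3 CPM in UVB + sauchinone and 274 ± 10.7 CPM in UVB (0.40 ± 0.070, adjusted p = 4.9e-05). These 2 rose. The 2 lower genes of this list, singled out once their values were known, also encode components of the A20 complex. TAX1BP1, an adaptor of A20, fell to 301 ± 23.01 CPM in UVB + sauchinone, against 374 ± 28.4 CPM in UVB (-0.31 ± 0.076, adjusted p = 0.0016). ITCH, a ubiquitin ligase that works with A20, fell to 56.2 ± 1.11 CPM in UVB + sauchinone, against 70.1 ± 5.26 CPM in UVB (-0.32 ± 0.085, adjusted p = 0.0032). Partners of A20 were thus called in both directions, and with the span trend removed or against a minimum 1.2-fold change 0 genes of the list were lower. Of all tested genes, 3458 and 2623 were lower in these settings.

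Of 32 other NF-κB targets 25 were tested: 15 rose, 6 fell and 4 did not pass, with a median log2 fold change of 0.40. CXCL8, a neutrophil chemokine, was at 21.98 ± 4.42 CPM in UVB + sauchinone and 1.61 ± 0.251 CPM in UVB (3.77 ± 0.18, adjusted p = 3.5e-13). IER3, an early stress-response gene, was at 52.3 ± 4.94 CPM in UVB + sauchinone and 13.8 ± 1.45 CPM in UVB (1.92 ± 0.11, adjusted p = 2.6e-12). GADD45B, a stress gene that restrains JNK signalling, was at 94.9 ± 19.5 CPM in UVB + sauchinone and 28.9 ± 2.96 CPM in UVB (1.71 ± 0.12, adjusted p = 9.5e-11). All 3 rose, whereas PTX3, a secreted pattern-recognition protein, fell to 134 ± 7.57 CPM in UVB + sauchinone, against 318 ± 11.99 CPM in UVB (-1.25 ± 0.073, adjusted p = 5.7e-12).

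**Figure D4:**
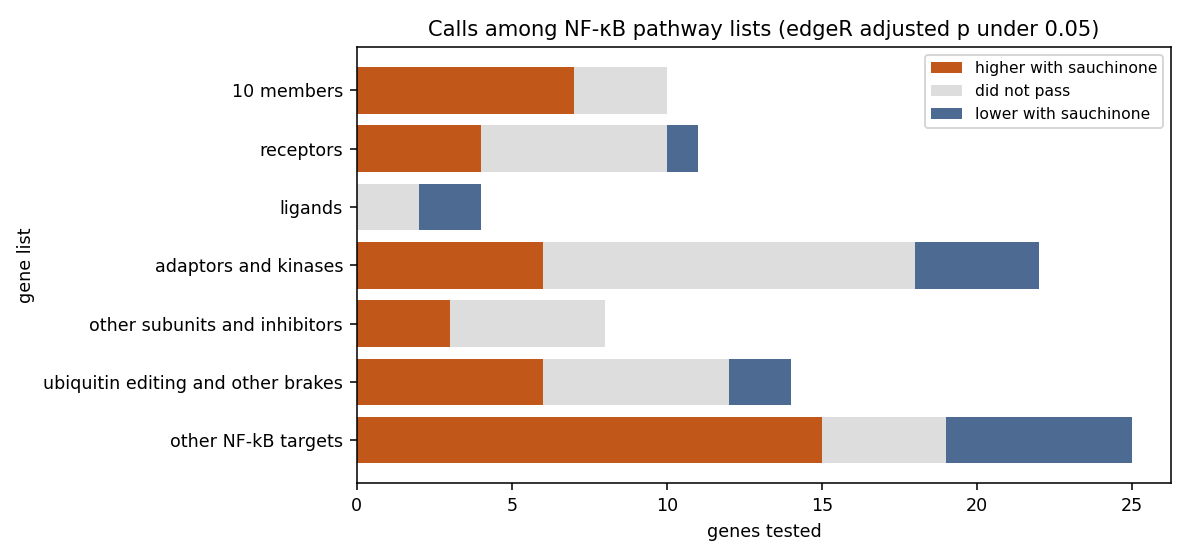
Number of tested genes (x axis) called higher (orange), not passing (grey) and called lower (blue) with sauchinone, by edgeR with adjusted p under 0.05, for the 10 members and 6 pathway lists (y axis). The members and the other subunits and inhibitors hold no lower call, and the ligands hold no higher call.

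**Figure D5:**
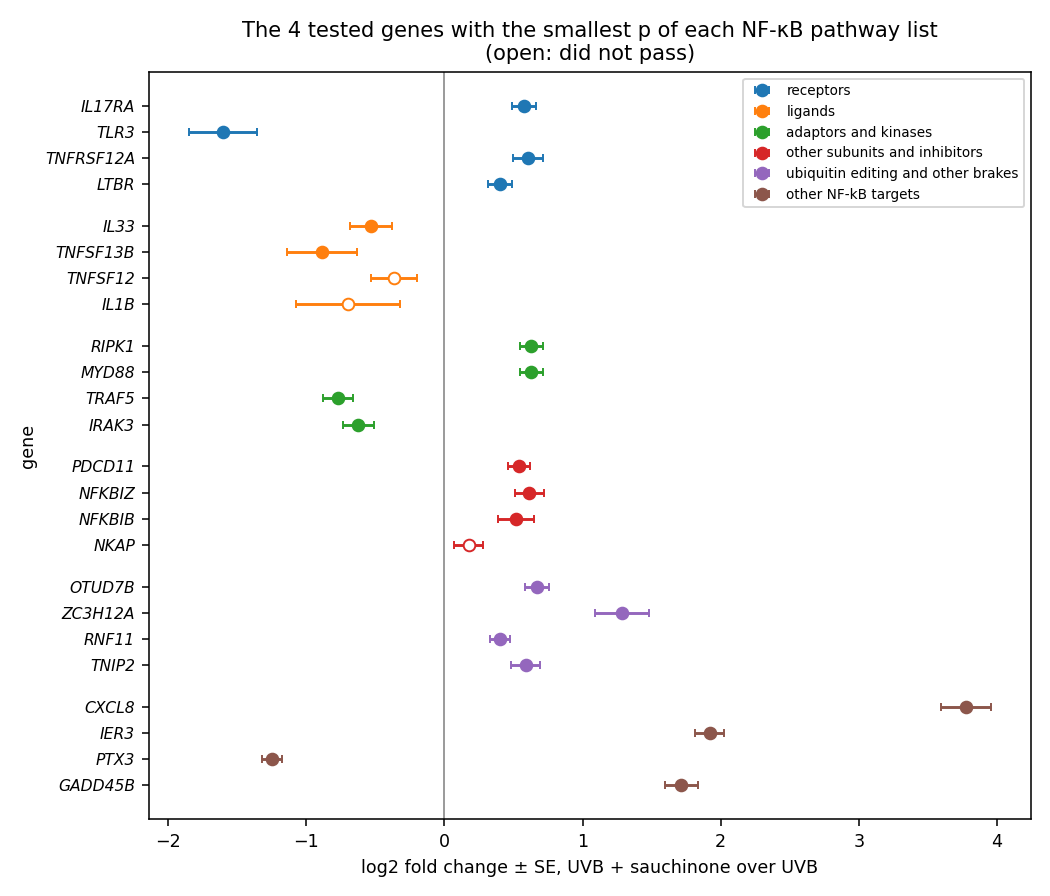
Log2 fold change ± SE of UVB + sauchinone over UVB (x axis) of the 4 tested genes with the smallest p of each pathway list (y axis), coloured by list; filled points passed the test and open points did not. TLR3 lies lowest at -1.60 and CXCL8 highest at 3.77.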

How the data were processed

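RNA-seq libraries of 3 UVB + sauchinone and 3 UVB samples were compared. The authors deposited 1 table, which holds FPKM values, exonic sizes and raw counts of each gene in each library. Per the submitters' processing notes the build was GRCh38; the aligner, counter and annotation release, and any use of strand, were not given in the sources used here. Per the labels' protocols libraries were strand-specific, after poly(A) selection or ribosomal RNA removal, without saying which. The deposited FPKM values equalled recomputed ones within 0.006 in 100% of values and were used only to order genes by level.

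Tests were run on the deposited counts with edgeR 4.0.16 under R 4.3.3 (filterByExpr, TMM scaling, quasi-likelihood test, two-sided, no covariates, Benjamini-Hochberg adjustment over 15704 genes, threshold 0.05). Plotted and printed CPM of genes are TMM-scaled, and summed marker CPM use total counts. Ratios used counts plus 0.5. The fit was tested on simulated data. Alternatives were other scalings, DESeq2 1.42.0, limma-voom (limma 3.58.1), other count filters, a minimum 1.2-fold change, a replicate block, removal of each library, and removal of a lowess trend with GC content, exonic size or span. The longest-transcript length was chosen after seeing the data.

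Named genes were the 10 members, the 4 tested genes of each list with the smallest p, the 3 genes most like each of the 2 members with the smallest p, and genes overlapping a member with at least 10 counts in a library. Outside that rule, marker genes are named as checks of cell type. REL, TNF, IL1A, IRAK4, MAP3K7, SHARPIN, RBCK1, RNF31, TAX1BP1 and ITCH were named after their values were seen. Members and lists were chosen with earlier results of these data known. Total counts of 20984851 to 23076388 per library limit the precision of members with few counts, such as BIRC3 and NFKBIE.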

Additional observations from a re-analysis of the deposited data

How the results depend on the processing

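Of 180 fold changes of members under alternatives, 169 kept their direction and their side of the threshold, and 7 members rose whichever library was left out. NFKB2, RELA, RELB, NFKBIE and IRAK2 kept their calls in all 18 alternatives. The number of members that rose was 5 to 8, where 2357 to 4302 of all tested genes were called higher. Against a minimum 1.2-fold change, 2357 genes were called higher and 2623 lower. Calls fell to 2 receptors and 3 adaptors and kinases higher, and to 0 ubiquitin editing genes and 3 other targets lower. NFKBIA (0.41) and SOD2 (0.37) lost their calls. With the span trend removed 3458 genes were lower, among them 2 receptors and 0 ubiquitin editing genes. NFKBIA (0.19) lost its call there, NFKB1 (0.39) gained a call and TNFAIP3 had -0.11. With the exonic size trend removed, 3789 genes were lower, and NFKB1 (0.41) gained a call. Among the lower genes were 1 of the other subunits and inhibitors list and 1 ubiquitin editing gene. With the GC trend removed 4010 of 15415 tested genes were lower, among them 7 of the 22 adaptors and kinases, and BIRC3 had 0.19. With limma-voom 3904 genes were lower, among them 2 receptors, and with DESeq2 3793, among them 1 ligand. Leaving out 1 library at a time gave 3422 to 3977 lower genes, with 1 to 2 lower receptors (2 without UVB + sauchinone replicate 2). It gave -0.029 to 0.11 for TNFAIP3 and -0.33 to 0.071 for BIRC3. The causes were not tested.

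Same-numbered libraries did not deviate together (r = 0.0072, -0.078 and -0.031). The labels give them only a shared number, and these correlations cannot show whether they also share a culture or batch. With a replicate block 3603 genes were higher and 3677 lower, and the calls of all 10 members were as without it.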
